A study of Capra hircus with 4 samples.

Results

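The cells described here are PI16/PCOLCE2 fibroblasts of the goat pancreas, proposed as adventitial fibroblasts. They numbered 4330 among 6254 gated fibroblasts and 17982 barcodes of sufficient depth. A barcode, the tag shared by the transcripts of 1 droplet, entered the gate with at least 3000 UMIs (unique molecular identifiers, each counting 1 captured transcript) and at least 500 genes. Fibroblasts had at least 1 PDGFRA UMI, at least 4 of the 7 stromal genes DCN, LUM, PDGFRB, COL1A2, COL3A1, FBLN1 and DPT, and no UMI of PTPRC or PECAM1. They also held under 3% of UMIs each from INS and PPY and under 5% from PRSS2, CLPS and SYCN together. Members then carried at least 3 UMIs of PI16 and PCOLCE2 together. These readouts chose the members, so their levels below are a description.

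Pancreas came from 4 female Liuyang black goats, 2 at 6 months of age (the DY group, ruminating) and 2 at 10 days of age (the XY group, the control, before rumination). The labels list no treatment, transgene or pooling of animals. The tissue was digested with collagenase IV, dispase and DNase I, freed of erythrocytes and of dead cells, and sequenced with 10x Genomics 3′ version 3 chemistry. Barcodes carry a library number from 1 to 4 that no label ties to an animal or an age, so no age was given to a library, no ages were compared, and no p-value was computed.

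Adventitial fibroblasts lie in the outer coat of vessels and ducts, where they lay down collagen and elastic microfibrils and receive immune cells. In mouse and human tissues, fibroblasts that express PI16 recur across organs and are often marked also by CD34 and DPP4. PI16 encodes a secreted or membrane-bound protein of the cysteine-rich secretory family. PCOLCE2 encodes an enhancer of the enzyme that trims the carboxyl end of procollagen. Parenchymal fibroblasts and stellate cells, the other stroma of this organ, lie among acini and are tied to basement membrane, retinoid storage and fibrosis.

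The 4 libraries held 43297855, 82817057, 65937591 and 55223412 UMIs, and 3203, 6618, 4832 and 3329 of their barcodes entered the gate. Among members 2 barcode sequences occurred in more than 1 library, as did 34 among all gated barcodes. Members had median depths of 4920.5, 5601, 6890 and 8072 UMIs in libraries 1 to 4. Fibroblasts with 0 PI16 and PCOLCE2 UMIs, called other fibroblasts below, had 3692, 4008, 4589.5 and 3835 UMIs. Library 4 stood apart: its members carried the most PI16 and PCOLCE2, and it held only 3 other fibroblasts. It therefore entered no comparison with other fibroblasts.

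At least 1 UMI of PI16 or PCOLCE2 was carried by most gated fibroblasts, with 5.45%, 17.3%, 8.38% and 0.319% at 0 in libraries 1 to 4. Members made up 82.9%, 47.5%, 72.3% and 99.0% of gated fibroblasts in libraries 1 to 4. The exact 95% binomial bounds were 80.7% and 85.0%, 45.5% and 49.6%, 70.1% and 74.3%, and 98.2% and 99.6%. Intervals cover counting error only. The library order was the same after every cell was thinned to 3000 UMIs, with shares of 74.2%, 28.1%, 48.2% and 97.2%. The plot of UMI classes shows 1 graded distribution per library, shifted upward in library 4. Members had a median of 10, 5, 8 and 31 PI16 and PCOLCE2 UMIs in libraries 1 to 4. Both genes were detected in 91.9%, 73.9%, 83.7% and 98.2% of them. At the edge of the rule, 536 members held exactly 3 UMIs and 601 fibroblasts just outside held 2.

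**Figure D1:**
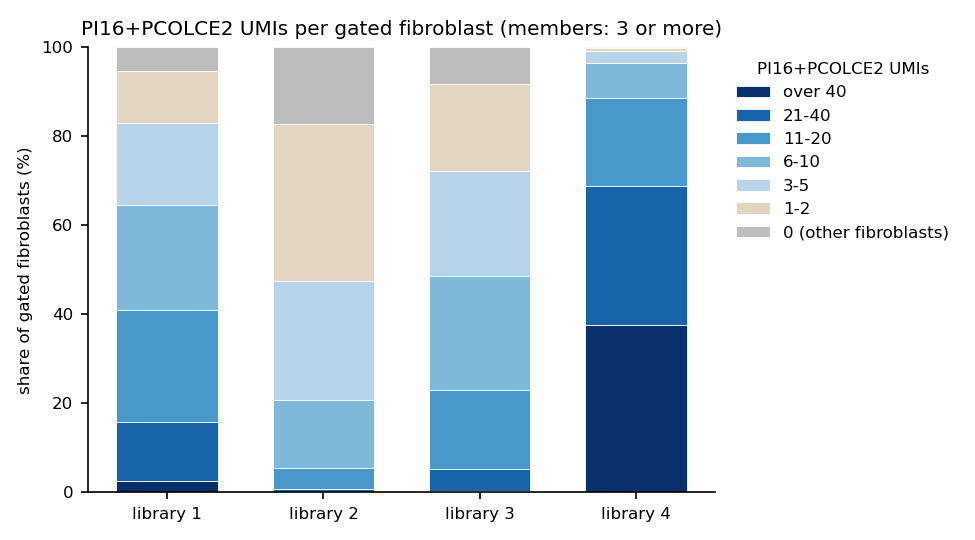
Share of gated fibroblasts (y axis, percent) in classes of PI16+PCOLCE2 UMIs per cell, by library (x axis). Blue classes are members and make up 82.9%, 47.5%, 72.3% and 99.0% of the bars of libraries 1 to 4; grey marks cells with 0 UMIs.

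Beyond PI16 and PCOLCE2, the proposed markers THY1, PODN and KLK7 differed in how widely members carried them. THY1, a surface glycoprotein of mesenchymal cells, was at 503, 415, 558 and 1119 CPM (counts scaled to a total of 1e+06) in members of libraries 1 to 4 and was detected in 74.6%, 76.9%, 88.4% and 96.4% of them. PODN, a small leucine-rich proteoglycan, was at 288, 147, 59.6 and 513 CPM and was detected in 70.8%, 52.5%, 32.7% and 89.6% of members. KLK7, a secreted serine protease, was at 114, 46.8, 212 and 750 CPM and was detected in 20.1%, 15.5%, 46.0% and 61.7% of members. KLK7 was thus detected in a minority of members of libraries 1, 2 and 3, and PODN in a minority in library 3.

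In other fibroblasts of libraries 1, 2 and 3, THY1 was at 196, 212 and 161 CPM, PODN at 196, 96.4 and 32.5 CPM, and KLK7 at 24.99, 6.24 and 36.6 CPM. For these 3 genes members lay above the other fibroblasts of each library, by as little as 1.46-fold for PODN in library 1. How many of all tested genes did so was not counted. The ratio was at least 2-fold in all 3 libraries for KLK7, whereas THY1 fell short in library 2 and PODN in every library.

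Cell classes that should lack the genes were taken with no PDGFRA and at most 1 of the 7 stromal genes. That choice also drops barcodes with fibroblast RNA, so the values below may understate the background. In barcodes with at least 2 UMIs of PTPRC or PECAM1 and no PDGFRA, and in enzyme-rich barcodes, PI16 reached at most 13.2 CPM and 0 barcodes carried 3 or more PI16 and PCOLCE2 UMIs. Up to 8.16% of them, in the 49 PTPRC barcodes of library 3 with a median depth of 5398 UMIs, held any UMI of the 2 genes. Among INS-rich barcodes, of up to 15333.5 UMIs median depth, 0.32% in library 1 and 0.20% in library 4 carried 3 or more. Any UMI of the 2 genes was held by 9.97% of INS-rich barcodes in library 1 and 16.5% in library 4. Free RNA, taken from barcodes of 10 to 100 UMIs, held PI16 at 139, 86.9, 84.9 and 123 CPM. PCOLCE2 was at 6.48, 4.36, 3.64 and 9.50 CPM in INS-rich barcodes of libraries 1 to 4. THY1 was less particular, at 68.5, 32.8, 57.3 and 92.1 CPM in PECAM1 barcodes, known for endothelial cells.

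**Figure D2:**
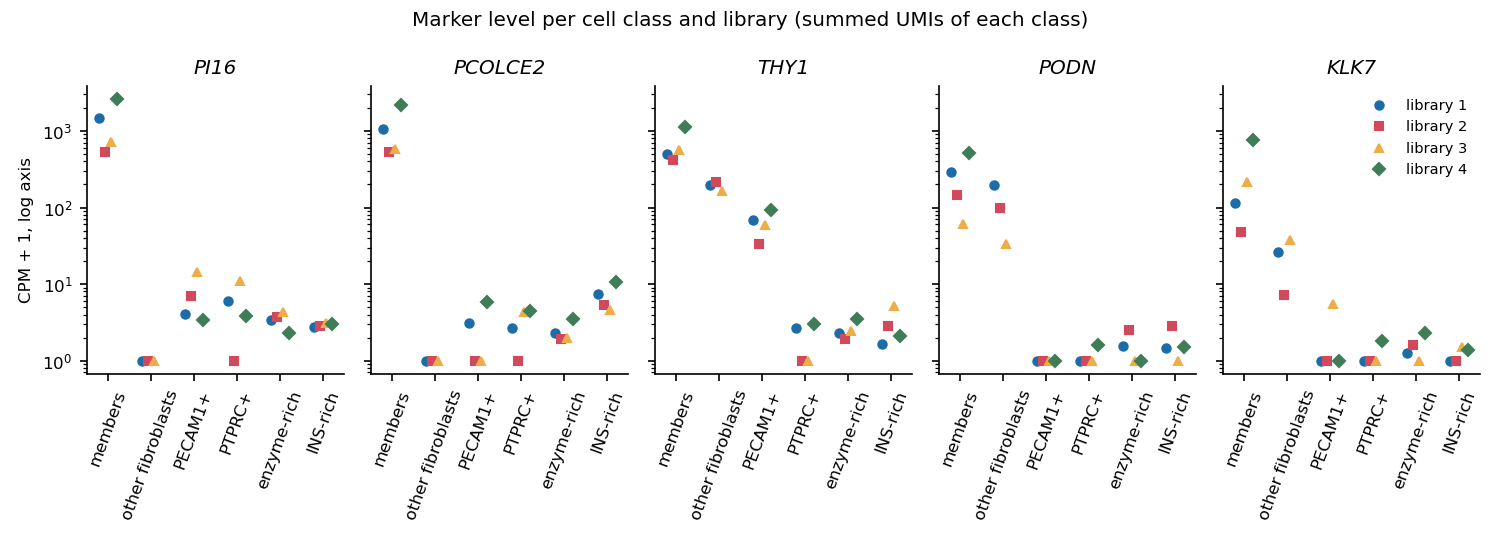
Level of PI16, PCOLCE2, THY1, PODN and KLK7 (y axis, CPM + 1, log axis) in 6 cell classes (x axis), 1 point per library. PI16 and PCOLCE2 chose the members and are 0 by construction in other fibroblasts; THY1 stays above 100 CPM in both fibroblast classes.

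A set of 16 genes known to mark such fibroblasts in other species was checked against the name. At least 10% of members carried 16, 15, 15 and 16 of the 16 in libraries 1 to 4. The 10% cut-off separates little, since 8, 6, 6 and 6 of 9 matched acinar markers also passed it in members. CLEC3B (tetranectin) was at 7090, 12323, 10115 and 13426 CPM. GSN (gelsolin, an actin-severing protein) was at 7436, 3276, 1815 and 5661 CPM. CD34 was detected in 62.7%, 71.8%, 67.7% and 85.3% of members. DPP4, a surface peptidase used to sort these cells in mice, was detected in only 20.4%, 31.2%, 22.0% and 43.7%. Other fibroblasts carried these markers too. The 16 genes summed to 28851, 27028 and 23096 CPM in members of libraries 1, 2 and 3, against 17318, 17713 and 12929 CPM in other fibroblasts. The rule took 69.2% of all gated fibroblasts, which is not a small subset. The counts hold no position in the tissue, so a place in the vessel coat was not measured.

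Markers of other cell types were mostly low, or lower in members than in other fibroblasts. The gate sets PECAM1 and PTPRC to 0 and caps INS, PPY, PRSS2, CLPS and SYCN. The endothelial, immune, endocrine and acinar sums thus partly restate it. The summed level of adipocyte markers was below 1 CPM in members. Endothelial markers summed to at most 5.28 CPM in members, against 7.14, 4.54 and 5.42 CPM in other fibroblasts of libraries 1, 2 and 3. Immune markers summed to 37.8, 17.4 and 7.85 CPM in members of libraries 1, 2 and 3, against 17.9, 13.6 and 66.4 CPM in other fibroblasts, and to 69.1 CPM in members of library 4. Of 10 immune markers 3, 3, 1 and 1 were at 0 in members, PTPRC among them by rule. Pericyte and smooth muscle markers summed to 121, 180 and 106 CPM in members of libraries 1, 2 and 3, against 279, 277 and 203 CPM in other fibroblasts. Mesothelial markers summed to 74.2, 96.9 and 94.8 CPM in members, against 689, 176 and 275 CPM in other fibroblasts. Endocrine markers summed to 1909, 1025 and 2334 CPM in members, against 5842, 1411 and 2675 CPM in other fibroblasts. Acinar markers summed to 3949, 2316, 2264 and 420 CPM in members of libraries 1 to 4, against 3231, 3024 and 2480 CPM in other fibroblasts of libraries 1, 2 and 3, and so were higher in members of library 1 alone. Their part in the results below was not tested.

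Members were set against other fibroblasts inside libraries 1, 2 and 3, with 1020, 1101 and 1277 members and 67, 401 and 148 other fibroblasts. UMIs were summed per class, and a gene was called higher or lower when log2(CPM + 1) differed by at least 1, a 2-fold ratio, in the same direction in all 3 libraries and the higher class held 20 counts or more in each. Of 9883 genes tested, 59 were higher in members (0.597%) and 7 lower (0.0708%). Among the genes of 23 functional lists, 488 were tested, 29 were higher and 0 lower.

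The call rule itself is uneven, since a gene high in the small class needs a higher level to reach 20 counts. The excess of higher over lower calls therefore cannot be read as an excess of higher genes. Without the minimum, 79 genes were higher and 71 lower. With at least 10 counts also expected in the smaller class, 38 genes were higher and 7 lower. The minimum of 20 counts stayed in force beside this condition. A lower gene thus still needed 20 counts in the smaller class, a higher gene only 10 expected there, and these numbers are uneven too. The list genes that lost their call under the expected-count condition were ADAMTSL5, BMP7, CADM3, DKK2, HMCN2, KLK10, NTN4 and RARRES1. Without library 1, 2 or 3 the counts were 102, 173 and 97 higher and 25, 20 and 10 lower. A call needed every library entered, so leaving a library out could only keep or add calls.

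Many genes on a list of adventitial fibroblast genes were higher in members. Of 34 tested genes on this list, 17 were higher and 0 lower, with a median log2 ratio of 1.22 against 0.00 over all genes. The list median was also 1.22 with genes at 0 counts set at their bound. Of the 29 genes that met the expected-count condition, 14 were higher, against 21 of 331 genes of all lists together. The share over all tested genes under this condition is not given here, so list counts under it lack that background. The list was drawn up with earlier results of these data known and holds the proposed markers THY1, PODN and KLK7. Its counts are therefore a description and no independent check of the name.

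Elastic microfibril genes led among the abundant ones. FBN1, which encodes fibrillin-1, the backbone of microfibrils, was at 2678, 2717 and 2338 CPM in members of libraries 1, 2 and 3, against 553, 905 and 725 CPM in other fibroblasts. MFAP5, a microfibril-associated glycoprotein, was at 2276, 3173 and 3122 CPM in members, against 571, 1348 and 978 CPM in other fibroblasts. The lowest member value exceeded the highest value of other fibroblasts for both genes, as it did for 4.85% of all tested genes. FBLN2 (fibulin-2) had a median log2 ratio of 1.51, ADAMTSL4, which binds fibrillin microfibrils, 1.58, and EMILIN2, an elastin microfibril interfacer, 1.20.

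In all, 6 of 24 tested elastic fibre genes were higher and 0 lower, with a list median of 0.46, or 0.20 with genes at 0 counts set at their bound. Under the expected-count condition 5 of 16 were higher, without ADAMTSL5. Elastin itself was not called. ELN was at 441, 2091 and 818 CPM in members of libraries 1, 2 and 3, against 143, 2592 and 525 CPM in other fibroblasts, and its log2 ratio ranged from -0.31 to 1.62. LTBP4, a latent TGF-beta binding protein of elastic fibres, had a median of 0.13.

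The collagens themselves, which are the main product of these cells, were not called, with 0 of 15 tested genes in either direction and a list median of 0.13. COL1A1 was at 3777, 26688 and 23418 CPM in members of libraries 1, 2 and 3, against 1650, 21374 and 16928 CPM in other fibroblasts. COL6A1 and COL6A2, chains of a beaded-filament collagen, had median log2 ratios of -0.14 and -0.21. Of 20 tested genes of procollagen processing and cross-linking, 0 were called, although LOXL1, an elastin cross-linking oxidase, came close with log2 ratios from 0.98 to 1.66. PCOLCE, the paralogue of PCOLCE2, had a median of 0.18. Only 1 of 17 tested basement membrane genes was higher (NTN4, with at most 3 counts in other fibroblasts of each library), and the list median was -0.29.

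Secreted proteases and their inhibitors held 3 higher genes of 35 tested. KLK7 had linear ratios of 4.56, 7.51 and 5.80 in libraries 1, 2 and 3, and log2 ratios from 2.15 to 2.72. KLK10, a related protease, had a median log2 ratio of 1.54 and 0, 5 and 4 counts in other fibroblasts, and 2 of 25 genes of the list were higher under the expected-count condition. TIMP2, an inhibitor of matrix metalloproteinases, had 1.14 and was abundant in members, with 1843, 1231 and 1673 CPM against 828, 559 and 828 CPM in other fibroblasts.

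Signalling genes were called in ones and twos from each list. SEMA3C, a secreted semaphorin that guides axons and vessels, was at 266, 244 and 526 CPM in members of libraries 1, 2 and 3, against 14.3, 55.6 and 140 CPM in other fibroblasts. NOV, a matricellular protein, was at 125, 70.7 and 163 CPM in members, against 24.99, 9.64 and 39.3 CPM in other fibroblasts. HHIP, which sequesters hedgehog ligands, was at 135, 20.4 and 13.7 CPM in members and rested on 3, 4 and 1 counts in other fibroblasts, with ratios of 12.6 (counting interval 4.29 to 61.1), 8.99 (3.43 to 33.5) and 10.1 (1.78 to 402). BMP7, a bone morphogenetic protein, rested there on 0, 3 and 2 counts, and was at least 1.30-fold higher in members of library 1 against a floor of 3 counts per library. DACT2, a modulator of Wnt and Nodal signalling, had ratios of 16.2, 8.02 and 3.95, the first resting on 1 count in other fibroblasts (counting interval 2.89 to 642). IGFBP6, which binds IGF2, was at 2550, 538 and 904 CPM in members, against 1118, 194 and 350 CPM in other fibroblasts.

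Of 12 tested cytokine and chemokine genes 2 were higher, and of 17 complement and innate defence genes 1, with list medians of 0.34 and -0.30. IL33, an alarmin cytokine, was at 99.8, 30.3 and 58.04 CPM in members of libraries 1, 2 and 3, against 42.8, 7.94 and 12.2 CPM in other fibroblasts. ACKR4, a scavenging receptor for chemokines, was at 233, 109 and 162 CPM in members, against 32.1, 45.9 and 47.5 CPM in other fibroblasts. CD55, which speeds the decay of complement convertases, had a median log2 ratio of 1.61. The soluble complement genes C3 and C7 did not go with it. C3 had a median of -0.76 and C7 of -0.98, and neither passed the 2-fold rule in every library.

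PRG4, which encodes the lubricant proteoglycan lubricin, had few counts in fibroblasts with 0 PI16 and PCOLCE2 UMIs. It had 291, 89 and 141 counts in members of libraries 1, 2 and 3, against 0, 0 and 1 in other fibroblasts. With a floor of 3 counts per library it was at least 4.99-fold higher in library 1 and at least 7.90-fold higher in library 2. In library 3 the ratio was 11.03, with a counting interval from 1.95 to 439. PRG4 was detected in only 8.04%, 4.36%, 4.07% and 26.8% of members of libraries 1 to 4. A gene with no name, LOC102168680, had 726, 97 and 415 counts in members, against 0 in other fibroblasts of each library, and was at least 12.5-fold, 8.61-fold and 10.8-fold higher.

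Further surface and regulatory genes of the list were higher. CD248 (endosialin) had a median log2 ratio of 1.23, AIF1L, an actin-binding protein, 1.99, TPPP3, a tubulin-binding protein, 1.49, and GFPT2, an enzyme of the hexosamine pathway, 1.16. CREB5 was the single transcription factor called of 54 tested, at 147, 154 and 172 CPM in members against 53.6, 68.6 and 59.7 CPM in other fibroblasts of libraries 1, 2 and 3. CD34 was not called, with log2 ratios from 0.78 to 2.20, nor was DPP4, from -0.20 to 0.86.

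Outside the lists, FN1 (fibronectin) was at 471, 230 and 449 CPM in members of libraries 1, 2 and 3, against 96.4, 80.5 and 111 CPM in other fibroblasts. ECM1, a secreted matrix protein, had a median log2 ratio of 2.15, SULF2, which edits heparan sulfate, 2.02, and PCSK6, a proprotein convertase, 2.00. TNFSF15, a cytokine of the tumour necrosis factor family, had 241, 189 and 192 counts in members, against 0, 1 and 3 in other fibroblasts.

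**Figure D3:**
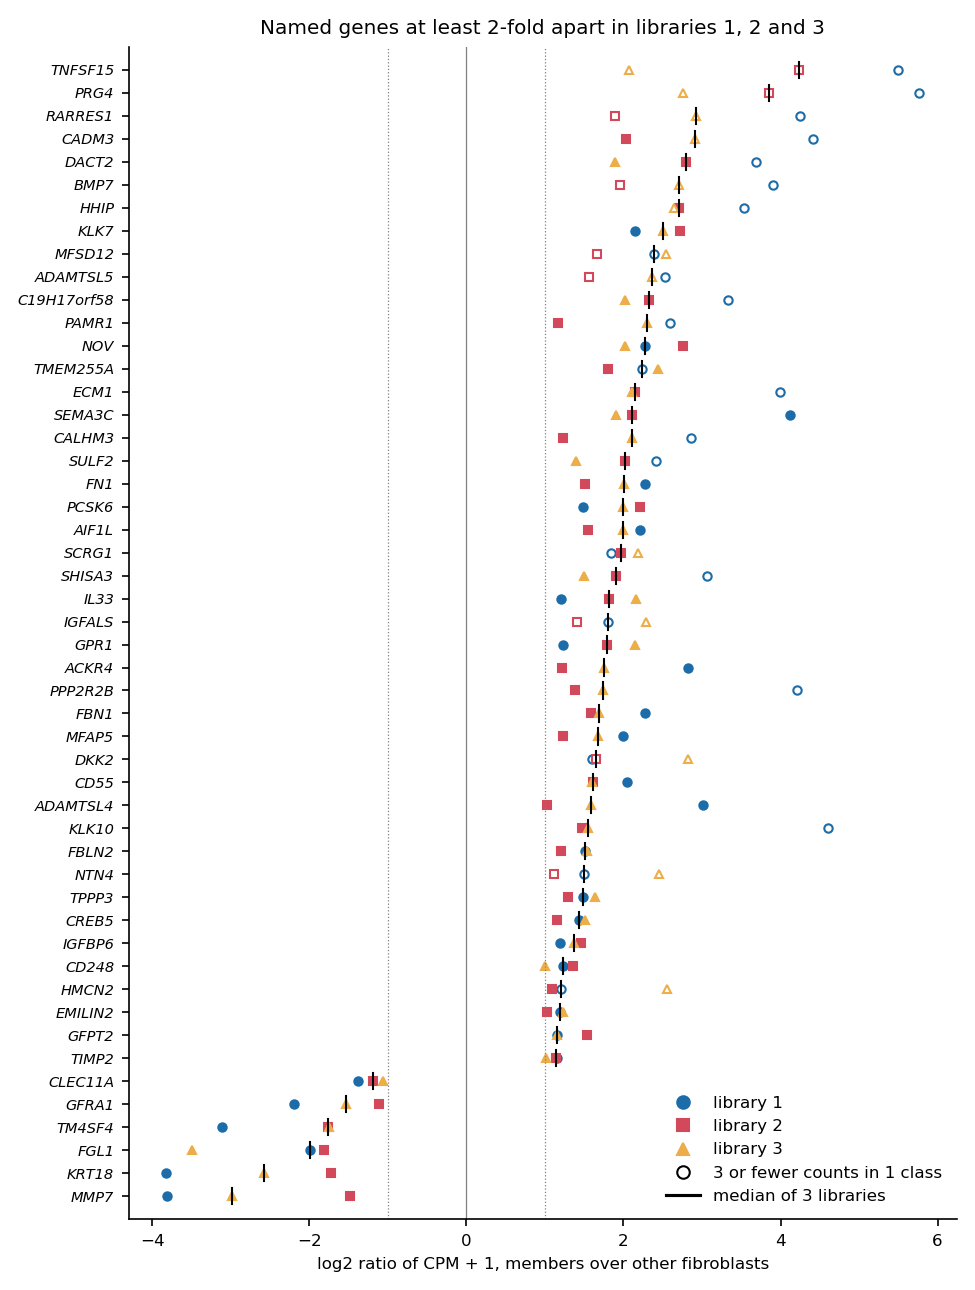
Log2 ratio of CPM + 1 (x axis), members over other fibroblasts, of each named gene with a symbol that was called (y axis), 1 point per library and a bar at the median. Open points mark 3 or fewer counts in 1 class, where the ratio depends on the pseudocount; KLK7, FBN1 and MFAP5 rest on more counts in every library.

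The 7 lower genes included epithelial ones. MMP7, an epithelial metalloproteinase, was at 9.74, 19.9 and 26.2 CPM in members of libraries 1, 2 and 3, against 150, 57.3 and 214 CPM in other fibroblasts. KRT18, a keratin of simple epithelia and mesothelium, was at 5.14, 7.55 and 11.5 CPM in members, against 85.7, 27.2 and 73.2 CPM in other fibroblasts. FGL1, a fibrinogen-like protein, and TM4SF4, a membrane protein of endocrine and duct cells, had median log2 ratios of -1.99 and -1.76. Duct markers were lower too, summing to 162, 114 and 145 CPM in members, against 675, 142 and 311 CPM in other fibroblasts, and the mesothelial and endocrine sums are given above. GFRA1, a receptor for glial-derived neurotrophic factor, had -1.53 and CLEC11A, a secreted growth factor, -1.19. The seventh carries no gene name (LOC100861279). With 50 counts required, 0 genes were lower.

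Genes of parenchymal fibroblasts and stellate cells were not called lower. Of 22 tested, 1 was higher (HHIP) and 0 lower, with a list median of -0.36. COL15A1, a basement membrane zone collagen, had log2 ratios from -1.03 to -0.16. CXCL12, a chemokine, was at 968, 724 and 539 CPM in members of libraries 1, 2 and 3, against 1346, 896 and 789 CPM in other fibroblasts. Outside this list, RSPO3, a Wnt agonist, had a median of -1.22, PTN (pleiotrophin) of -1.15 and LPL (lipoprotein lipase) of -1.44. These genes were picked after their values were seen, and each missed the 2-fold rule in library 2.

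The remaining lists held few calls. RARRES1 was the single higher gene of 27 lipid and retinoid genes and rested on 0, 2 and 0 counts in other fibroblasts. DKK2 and DACT2 were the higher genes of 21 Wnt genes. Under the expected-count condition 0 of 19 lipid genes and 1 of 9 Wnt genes were higher. None of 26 immediate early genes was called. None of 13 contractile genes, 8 proliferation genes, 13 imprinted genes, 15 antigen presentation genes or 24 receptor and channel genes was called in either direction, with list medians of -0.47, -0.39, -0.06, 0.17 and -0.01.

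Because members were deeper than other fibroblasts and library 4 held almost no other fibroblasts, all gated fibroblasts were also thinned to 3000 UMIs, ranked by thinned PI16 and PCOLCE2 counts and cut into 3 groups of equal size. The top and the bottom group were compared, a choice made after the data were seen. These groups held 410, 772, 589 and 313 cells each in libraries 1 to 4. In library 4, 304 of the 313 cells of the bottom group were members, so there the contrast ran within members. Of 5593 genes tested, 23 were higher (0.411%) and 3 lower (0.0536%) in the top group. Leaving out libraries 1, 2, 3 and 4 in turn, which could only keep or add calls, the lower genes numbered 6, 13, 6 and 7.

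FBN1, SEMA3C and KLK7 passed again in all 4 libraries. FBN1 was at 3426, 2932, 2684 and 5194 CPM in the top group of libraries 1 to 4, against 1056, 1155, 1200 and 2568 CPM in the bottom group. SEMA3C was at 361, 289, 636 and 872 CPM in the top group, against 90.2, 82.0, 237 and 302 CPM in the bottom group. KLK7 was at 131, 43.2, 259 and 1158 CPM in the top group, against 38.2, 10.4, 63.4 and 310 CPM in the bottom group. Across libraries the groups overlapped. The bottom group of library 4 had more KLK7 than the top group of libraries 1, 2 and 3, and more SEMA3C than the top group of library 2.

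PRG4, BMP7, CADM3 (a cell adhesion molecule) and HHIP were also higher, with median log2 ratios of 2.57, 2.39, 2.53 and 2.31. LOXL1 had 1.13 and FSTL3, which binds activins, 1.22. Of 32 tested adventitial genes 6 were higher and 0 lower, with a list median of 0.86, and 1 of 18 tested elastic fibre genes was higher. THY1 (0.94) and PODN (0.55) did not reach 2-fold in every library. The 3 lower genes were SST, the hormone of delta cells, TMSB15B, a thymosin, and FGL1. Without the cells that held at least 1% of their UMIs as SST, 1 of these 3 was called.

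Between these ends the level of some genes climbed with PI16 and PCOLCE2 from class to class, while others, such as THY1 and PODN, dipped between classes in libraries 1 and 4. In library 1, FBN1 was at 609 CPM in fibroblasts with 0 thinned UMIs, 850 with 1, 1351 with 2 or 3, 1833 with 4 to 6, 3014 with 7 to 12 and 4188 with 13 or more. MFAP5 in library 2 was at 1607, 2050, 2758, 3569 and 3812 CPM over the first 5 of these classes. GFRA1 in library 1 ran the other way, at 147, 108, 57.1, 36.6, 26.2 and 6.94 CPM. In library 2 GFRA1 was at 86.8 CPM in the class of 0 and 39.2 CPM in that of 7 to 12, and in library 4 it held between 21.7 and 28.5 CPM.

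**Figure D4:**
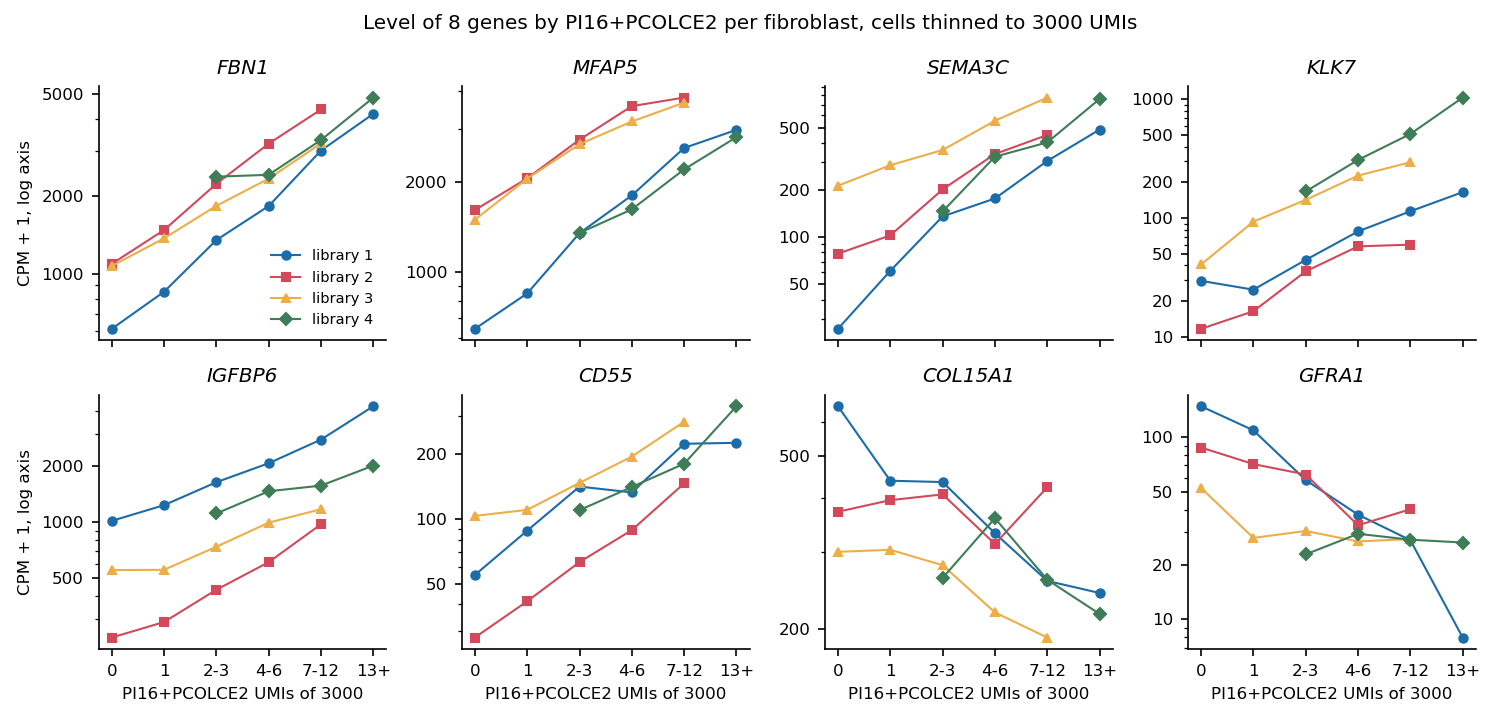
Level of 8 genes (y axis, CPM + 1, log axis) in gated fibroblasts grouped by PI16+PCOLCE2 UMIs among 3000 (x axis), 1 line per library; classes under 20 cells are left out. FBN1, MFAP5, IGFBP6 and SEMA3C climb from class to class in each library, KLK7 and CD55 do so but for 1 dip in library 1, and GFRA1 and COL15A1 fall in library 1.

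Genes were also ranked by how their counts followed PI16 and PCOLCE2 across single cells. Spearman correlations over gated fibroblasts, thinned to 3000 UMIs, were ranked by the lowest of the 4 libraries among 2773 genes and are given as a description. With PI16 the nearest were TIMP2 (lowest 0.25), FBN1 (0.25), FBLN2 (0.23), MFAP5 (0.22) and COL1A1 (0.22), the last of which was not called above. With PCOLCE2 they were FBN1 (0.34), MFAP5 (0.27), ITM2B, an integral membrane protein (0.26), and TIMP2 (0.24). PI16 and PCOLCE2 correlated with each other at 0.33, 0.11, 0.23 and 0.27 in libraries 1 to 4. In these sparse counts all values are low, and cells of a library share its depth and free RNA.

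Levels in members differed widely between libraries for some secreted genes and little for others. Over 9821 genes with 20 counts in every library, the highest library exceeded the lowest by a median of 1.66-fold, and 0.906% of genes by over 10-fold. COL6A2 was steady at 1786, 1801, 1755 and 2370 CPM, and TIMP1, a metalloproteinase inhibitor, at 814, 663, 747 and 788 CPM. IL6ST, the shared receptor of the interleukin-6 family, was at 172, 162, 150 and 176 CPM.

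COL1A1 was at 3777 CPM in library 1 and at 26688, 23418 and 20746 CPM in libraries 2, 3 and 4. COL3A1, a rule gene, followed with 3292 CPM in library 1 and 17962, 14943 and 21783 CPM in the others. Library 1 was also highest for F3 (tissue factor), at 183, 16.0, 7.32 and 19.1 CPM, and SERPINE2, a protease inhibitor, at 254, 14.8, 11.6 and 42.9 CPM.

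Some genes of growth were highest in library 2 or 3. IGF2, a fetal growth factor, was at 1029, 5093, 2233 and 652 CPM in libraries 1 to 4. STC1 (stanniocalcin) was at 4.04, 110, 206 and 18.3 CPM, FBN2, the fibrillin of developing tissue, at 4.78, 66.6, 99.2 and 15.2 CPM, and PTN at 150, 767, 587 and 61.5 CPM. DLK1, an imprinted gene of early growth, was highest in library 4, at 1203, 3239, 2332 and 3333 CPM. Other genes were highest in library 1 or 4. C3 was at 2571, 969, 594 and 2933 CPM, and COL8A1, a short-chain collagen of vessel walls, at 167, 3.47, 11.6 and 149 CPM. FOS, an immediate early gene that tissue dissociation is known to induce, was at 2914, 584, 874 and 4387 CPM. The part of dissociation in these differences was not tested. With no label for the libraries, these values cannot be tied to age.

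**Figure D5:**
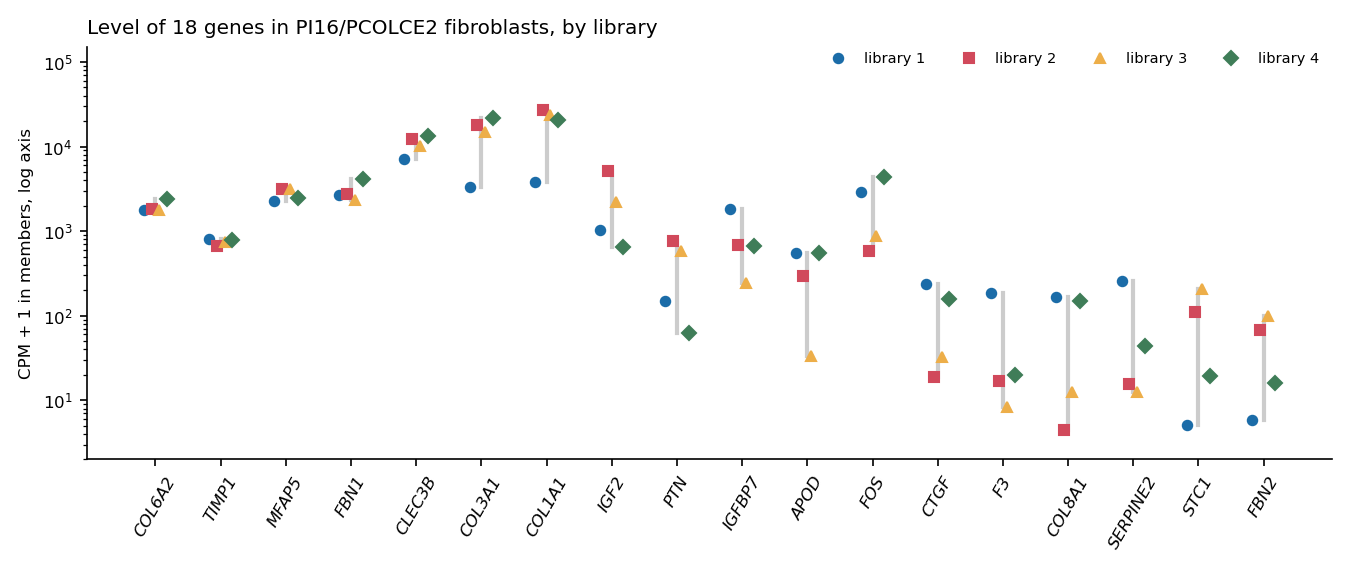
Level of 18 genes in members (y axis, CPM + 1, log axis), 1 point per library (x axis, genes). COL6A2 and TIMP1 lie within a narrow band, COL1A1 and COL3A1 are low in library 1, and IGF2, PTN, STC1 and FBN2 are highest in libraries 2 or 3.

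Within libraries, variation among members was described by the Fano factor, the variance of a gene over cells divided by its mean after thinning. Genes were ranked by the lowest of the 4 libraries, and that lowest value had a median of 1.00 over 2986 genes. MGP, a calcification inhibitor, was at 10420, 15015, 11798 and 12002 CPM and had Fano factors of 20.4, 17.9, 21.2 and 24.2. COL1A1 had 12.6, 14.3, 14.1 and 16.4. Both genes were among the most abundant of members, and Fano factors were not adjusted for level. APOA1, an apolipoprotein, had 16.2, 10.1, 9.70 and 9.11, and IGFBP5, an IGF-binding protein, 21.3, 7.42, 8.30 and 18.5. SST had the highest, at 347, 53.3, 67.3 and 400, and its UMIs came from few cells. In libraries 1 to 4, 3, 1, 2 and 4 members held at least 1% of their UMIs as SST, and they carried 98.3%, 56.6%, 73.5% and 98.6% of the SST UMIs of all members. Without them the counts against other fibroblasts were 60 higher and 7 lower.

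IGFBP5 was also higher in a minority of members that carried HHIP or EDNRA, the endothelin receptor known from vascular smooth muscle. Members with at least 3 HHIP and EDNRA UMIs numbered 102, 13, 21 and 48 in libraries 1 to 4, against 713, 993, 1154 and 735 with 0, and library 2 was not entered. Of 2575 genes tested, 6 were higher (0.233%) and 3 lower (0.117%). This comparison was added after the data were seen. Leaving out libraries 1, 3 and 4 in turn, the counts were 6, 26 and 12 higher and 6, 33 and 7 lower. Here too, omission could only keep or add calls.

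SERPINE2 was at 1163, 280 and 159 CPM in the HHIP/EDNRA members of libraries 1, 3 and 4, against 88.4, 2.84 and 18.6 CPM in members without these UMIs. IGFBP5 was at 5846, 3149 and 6710 CPM in HHIP/EDNRA members, against 1340, 674 and 1942 CPM in members without. The ratios in libraries 1, 3 and 4 were 13.2, 98.7 and 8.58 for SERPINE2 and 4.36, 4.68 and 3.46 for IGFBP5. COL8A1 was at 361, 215 and 403 CPM in HHIP/EDNRA members, against 129, 8.52 and 104 CPM in members without. The matricellular gene THBS2 and the inhibitor SERPINF1 had median log2 ratios of 1.44 and 1.28, and the sixth gene carries no name (LOC102175704).

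For SERPINE2, IGFBP5, COL8A1 and THBS2 every HHIP/EDNRA value lay above every value of members without, as in 3.34% of all tested genes, whereas the SERPINF1 values overlapped across libraries. PI16 itself was at 2743, 1134 and 4353 CPM in the HHIP/EDNRA members, against 1235, 690 and 2292 CPM in members without. THY1 was at 396, 280 and 862 CPM in HHIP/EDNRA members, against 499, 571 and 1144 CPM in members without, and its ratio reached 2-fold in library 3 alone. The lower genes were SST, TSPAN7 (a tetraspanin) and CIDEA (a lipid droplet protein), with median log2 ratios of -5.84, -1.77 and -1.75 and as few as 2, 5 and 3 counts in the HHIP/EDNRA members of a library. Median depths were 5638, 7117 and 10396 UMIs in HHIP/EDNRA members, against 4819, 6855 and 7873 UMIs in members without. After thinning to 3000 UMIs, 3 of the 6 higher genes and 0 of the 3 lower ones were called.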

How the data were processed

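The authors deposited 1 unfiltered matrix of whole UMI counts per gene and barcode, joining 4 libraries. Cell Ranger 3.1.0 and Seurat 3.1.1 appear in the submitters' processing notes, whereas the deposited count matrix credits Cell Ranger 5.0.1 in its header. The build is not given in the sources used here. Gene symbols are those of the deposited feature list. Counts were used as deposited.

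Barcodes were gated as described, with no doublet caller and no doublet removal beyond the gates. Counts were summed per class and library and scaled to CPM. Ratios were taken on the log2(CPM + 1) scale, which shrinks ratios of low genes where both classes hold counts. Where a class held 0 counts, the ratio depended on the pseudocount and could exceed its bound. KLK10 in library 1 had a log2 ratio of 4.60, whereas the floor of 3 counts gave at least 2.18-fold. Libraries with 20 cells of both classes entered, with no test and no p-value, since no label makes libraries replicates of a group. The comparisons of the top and bottom groups and of HHIP/EDNRA members also required 10 counts expected in the smaller class. An age comparison with edgeR was planned and could not be made.

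Named genes were the 30 called list genes and the 15 called others per direction with the largest absolute median log2 ratio, plus the markers. Genes named for levels, slopes or spread, and those named as not called, were chosen after their values were seen. Of 792 list genes 751 were matched. Members and lists were chosen with earlier results of these data known. The call rule was tested on simulated counts. Python 3.11.15 with numpy 2.4.6, scipy 1.17.1 and pandas 2.3.3 was used.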

Additional observations from a re-analysis of the deposited data

Results flagged for a closer look

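Fibroblast-gate barcodes of 1000 to 3000 UMIs, which lie outside the depth gate and entered no comparison, also carried PI16 and PCOLCE2. There were 424, 1180, 259 and 184 such barcodes in libraries 1 to 4, and 164, 145, 66 and 137 of them held 3 or more UMIs of both genes together. They were singled out because the shares of 38.7%, 12.3%, 25.5% and 74.5% exceed the 0.708%, 0.254%, 1.16% and 1.63% that a count of 0 would allow, a bound that takes no account of free RNA. The median level of both genes together was 7.82, 3.42, 5.95 and 25.8 per 10000 UMIs in these barcodes, against 2.40, 1.70, 1.26 and 2.46 in free RNA, whose part in the shares was not tested. The order of the libraries was the same as among deeper fibroblasts.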

How the results depend on the processing

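No paired analysis was possible because the barcodes carry library numbers that no label ties to the replicate numbers of the ages. Ratios between cell classes were taken inside each library, with no test, since counts of the same cells chose the classes. The planned comparison with HHIP/EDNRA fibroblasts outside the members was not run, since only 10 such cells were found. Against other fibroblasts (59 genes higher, 7 lower), a pseudocount of 10 CPM left 35 higher, 10 expected counts 38 and other fibroblasts with 0 to 2 UMIs 36. The lower count was 0 at 50 counts, 71 with no minimum, 3 after thinning and 13 at 5 UMIs, and cells of at least 5000 UMIs in libraries 2 and 3 gave 183 higher. Leaving out 1 library gave 97 to 173 higher and 10 to 25 lower. In every comparison such an omission could only keep or add calls, so these ranges do not show stability. After thinning, 45 of the 59 higher genes were called again.

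For the top against the bottom group (23 higher, 3 lower), a pseudocount of 10 CPM left 10 higher and 50 counts 11. The lower count was 7 with no minimum, 10 with all UMIs summed and 1 without SST-rich cells, and leaving out 1 library gave 26 to 33 higher and 6 to 13 lower. For HHIP/EDNRA members (6 higher, 3 lower), the higher count was 2 at 50 counts, 16 with no minimum, 3 after thinning and 2 at 2 UMIs, where 1 of the 6 higher and 0 of the 3 lower genes were called again. The lower count was 55 with no condition on expected counts, and 1 both after thinning and without the 5% of cells with the most UMIs. Leaving out 1 library gave 6 to 26 higher and 6 to 33 lower.

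The share of members among fibroblasts of libraries 1, 2 and 3 was 88.0%, 63.3% and 81.9% at 2 UMIs. In libraries 1 to 4 it was 71.7%, 26.3%, 54.8% and 97.9% at 5 UMIs, 92.9%, 65.1%, 81.9% and 99.9% above 5000 UMIs per barcode, and 71.6%, 35.6%, 66.3% and 95.02% above 1000. After thinning it was 74.2%, 28.1%, 48.2% and 97.2%, and with 6 stromal genes 50.1% in library 2. The cause of these moves was not tested.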
